A study of Mus musculus with 20 samples.

Results

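The genes described here are 10 osteoblast genes in mouse tibia: the osteocalcin genes Bglap, Bglap2 and Bglap3, the matrix glycoprotein genes Ibsp and Spp1, the phosphatase gene Alpl, the transcription factor genes Sp7, Runx2 and Dlx5, and Ostn, which encodes osteocrin. They were chosen by name, with earlier results of these data known, and all 10 had a row in the deposited table of 54446 genes. RNA-seq was performed on 20 tibia libraries from male C57BL/6J mice aged 3 months, 5 in each of 4 groups. Mice were injected subcutaneously for 5 days with either water (vehicle) or the glucocorticoid dexamethasone (DEX) at 1 mg/kg. Axial compression of -13 N was applied to the left tibia, 40 cycles at a time, on day 1 and day 3 according to the labels, while the right tibia was not loaded. The sources used here do not agree on whether there was a further loading session. The loaded and unloaded groups therefore come from the 2 limbs of treated or control animals, and RNA came from frozen, pulverised bone. Removal of marrow or muscle is not described in the sources used here, and neutrophil, B cell and muscle markers were detected in all 4 groups. Nothing in the sources used here ties a library number to an animal, so the p-values below measure the spread between libraries.

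Osteoblasts arise from mesenchymal precursors under the transcription factors Runx2 and Sp7 (osterix), with Dlx5 as a homeobox factor acting upstream of both. As they mature they secrete a collagen-rich matrix, raise alkaline phosphatase, which frees phosphate for mineral, and add noncollagenous proteins that bind mineral and cells: bone sialoprotein (Ibsp), osteopontin (Spp1) and, late in the sequence, osteocalcin. Serum osteocalcin is a clinical marker of bone formation that falls under glucocorticoid therapy. Osteocrin is a secreted peptide of osteoblasts and muscle that binds the natriuretic peptide clearance receptor.

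The mouse osteocalcin genes lie side by side on the minus strand of chromosome 3, with Bglap at chr3:88383501-88384464, Bglap2 at chr3:88377736-88378699 and Bglap3 at chr3:88368616-88372743 (GRCm38, GENCODE M21). Ibsp (chr5:104299171-104311469) and Spp1 (chr5:104435118-104441050) lie on the plus strand of chromosome 5, with Mepe between them. The exonic coding sequences of the 3 osteocalcin transcripts, without the stop codon, are shown because their likeness sets how far the genes can be told apart by reads. Each is 285 bases long over 4 exons, and capitals mark bases that differ from Bglap.
Bglap: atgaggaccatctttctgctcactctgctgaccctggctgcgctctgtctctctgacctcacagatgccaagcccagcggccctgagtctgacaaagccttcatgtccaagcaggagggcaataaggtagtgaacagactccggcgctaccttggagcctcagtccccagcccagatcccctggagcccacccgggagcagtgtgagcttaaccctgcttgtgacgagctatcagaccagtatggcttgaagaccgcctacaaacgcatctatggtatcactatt
Bglap2: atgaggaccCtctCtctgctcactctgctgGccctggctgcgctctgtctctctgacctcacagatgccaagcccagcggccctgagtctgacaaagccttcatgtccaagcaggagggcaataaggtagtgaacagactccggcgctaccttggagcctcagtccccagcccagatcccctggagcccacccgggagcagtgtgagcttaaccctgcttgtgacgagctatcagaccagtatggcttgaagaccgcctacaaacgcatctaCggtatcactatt
Bglap3: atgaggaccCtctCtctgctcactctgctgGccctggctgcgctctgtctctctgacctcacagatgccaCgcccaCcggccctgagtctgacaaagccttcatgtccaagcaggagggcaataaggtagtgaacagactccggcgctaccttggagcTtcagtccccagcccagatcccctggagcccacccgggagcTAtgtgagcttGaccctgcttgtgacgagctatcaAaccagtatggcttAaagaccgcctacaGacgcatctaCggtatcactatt
Bglap and Bglap2 were identical at 281 of 285 positions (98.6%), and Bglap and Bglap3 at 272 (95.4%). Of the 391 windows of 50 bases in the Bglap transcript, 292 (74.7%) also occurred in the Bglap2 transcript. Of the 668 windows of the Bglap3 transcript, 80 occurred in Bglap and 160 in Bglap2. Reads from such windows are divided between the genes by estimation, so the level of a single osteocalcin gene is uncertain and the sum of the 3 genes is given beside it.

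Summed expected counts ran from 4641499 to 13032065 per library. Loaded DEX library 4 had the lowest total and the most genes with a count (40004). Over both limbs, genes with a count numbered 29044 to 34305 in vehicle and 34811 to 40004 in DEX libraries, without overlap. Expected counts that were not whole made up 10.6% to 11.8% in vehicle and 12.3% to 14.0% in DEX libraries, also without overlap. The part of these library differences in the DEX comparisons was not tested. Unloaded DEX library 4 was left out of the tests, as described under processing, and is included in the levels. One vehicle library in each limb group had a column number that matched no label and is called unnumbered. Olfactory and vomeronasal receptor genes, which bone is not known to use, had summed levels of 232 to 914 CPM in loaded vehicle tibiae and 1092 to 8885 in loaded DEX tibiae, without overlap. In unloaded tibiae these were 347 to 1276 with vehicle and 812 to 3258 with DEX. CPM is the count of a gene relative to its library total, after trimmed mean (TMM) scaling over all 20 libraries. The receptor sums above are an exception, being relative to the library total without that scaling.

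In unloaded vehicle tibiae the levels per kilobase of exon, the only scale on which genes are compared with each other, were highest for Bglap (1437 ± 408 CPM per kb, SD, n = 5) and Bglap2 (1258 ± 605). They were followed by Ibsp (782 ± 214), Spp1 (570 ± 125), Alpl (85.4 ± 14.8) and Sp7 (26.9 ± 4.64). Runx2 (17.8 ± 1.89), Ostn (16.7 ± 4.40) and Dlx5 (16.04 ± 3.60) stood close together, and Bglap3 was lowest (2.38 ± 1.10). The ranges of Bglap and Bglap2, Bglap2 and Ibsp, Ibsp and Spp1, Runx2 and Ostn, and Ostn and Dlx5 overlapped, whereas the 5 libraries of each other pair of neighbours were apart. In loaded DEX tibiae Bglap (59.3 ± 51.0) and Bglap2 (60.5 ± 42.6) were below Spp1 (545 ± 171) and Ibsp (424 ± 115) on the same scale.

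**Figure D1:**
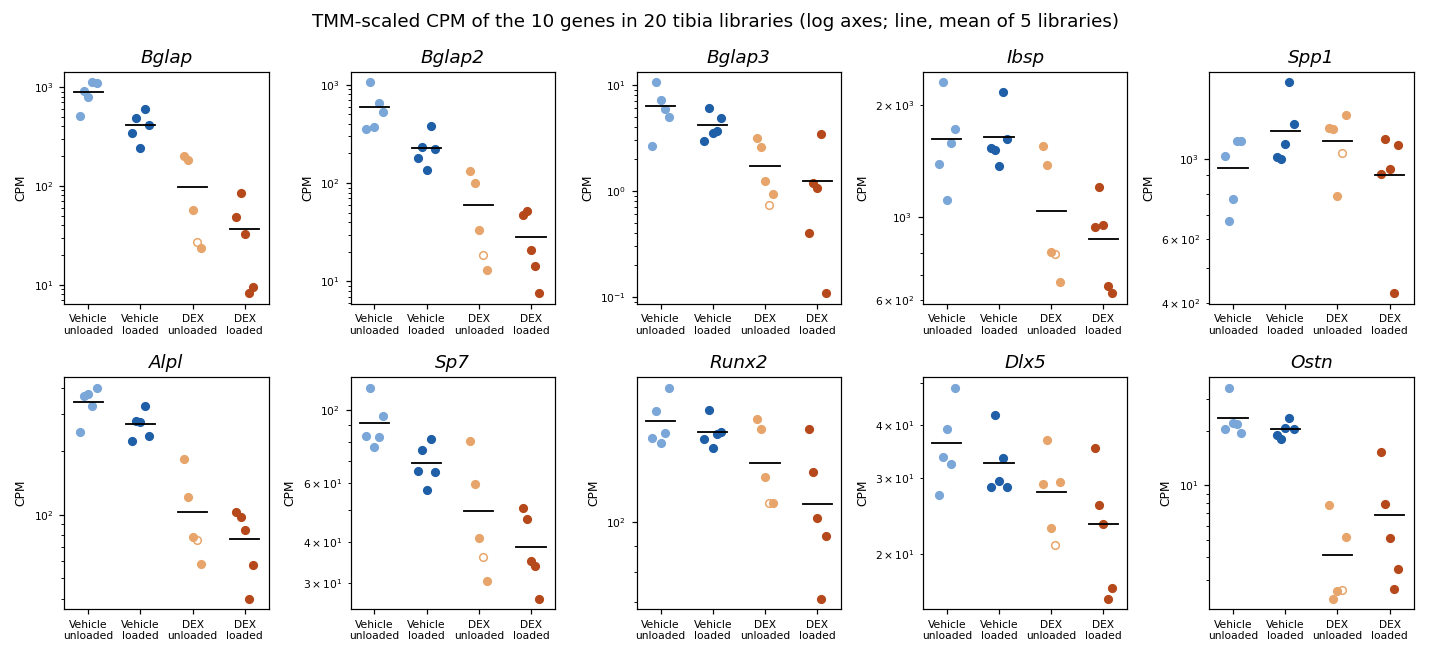
CPM of each of the 10 genes (log axes, a separate range for each panel) in the 20 libraries, grouped by treatment and limb, with the mean of 5 libraries as a line; the hollow point is unloaded DEX library 4, which is not in the tests. Bglap, Bglap2, Alpl and Ostn lie lower in both DEX groups than in the vehicle groups, while the 4 Spp1 groups overlap.

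Bglap and Bglap2, the main osteocalcin genes of bone, had the largest log2 fold changes of the 10 genes with DEX in both limbs. Bglap CPM in the loaded vehicle libraries 1, 2, 4, 5 and unnumbered were 342, 483, 241, 595 and 417, and in the loaded DEX libraries 1 to 5 they were 48.6, 84.3, 32.6, 8.19 and 9.53. Every DEX library was below every vehicle library. The log2 fold change was -3.47 ± 0.55 (SE), 11.1-fold lower, with an edgeR quasi-likelihood adjusted p of 0.0025. Without loaded DEX library 2, the highest of its group, it was -4.07 (adjusted p = 0.00081). In unloaded tibiae Bglap CPM were 513, 907, 790, 1117 and 1114 with vehicle and 201, 182, 56.9, 27.2 and 23.5 with DEX. These groups were also apart, and the log2 fold change was -2.95 ± 0.53 (edgeR adjusted p = 0.012). This call was lost with a replicate block (edgeR adjusted p = 0.054), though not in the same libraries without it (0.048), and without unloaded DEX library 3 (0.057).

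The group means of Bglap2 stood in the same order as those of Bglap. Its CPM were 178, 230, 137, 380 and 220 in loaded vehicle libraries and 47.6, 51.9, 21.1, 14.3 and 7.58 in loaded DEX libraries. In unloaded libraries they were 359, 1056, 373, 648 and 526 with vehicle and 133, 99.2, 33.4, 18.6 and 13.2 with DEX. Both limbs gave groups without overlap, with log2 fold changes of -2.98 ± 0.47 in loaded tibiae (edgeR adjusted p = 0.0023) and -3.11 ± 0.59 in unloaded tibiae (adjusted p = 0.014). The unloaded call was lost without unloaded DEX library 3 (edgeR adjusted p = 0.066). Bglap3, the osteocalcin-related paralog, was low throughout, with 0.108 to 3.47 CPM in loaded DEX tibiae from rounded counts of 1 to 22. Its log2 fold change passed the test in unloaded tibiae (-1.68 ± 0.43, edgeR adjusted p = 0.039) and was -1.73 ± 0.60 in loaded tibiae (adjusted p = 0.057), where library 4 had the highest rounded count. It passed in loaded tibiae with DESeq2 (adjusted p = 0.021), without the filter on low counts (0.0037), with all 4 groups in the model (0.012) and without loaded DEX library 4 (0.0077). In unloaded tibiae its call was lost with all 4 groups in the model (edgeR adjusted p = 0.056), and in the libraries with shared replicate numbers, with a replicate block (0.16) or without it (0.14). It was also lost in 6 of 9 fits that left out a library.

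The sum of the osteocalcin genes does not depend on how shared reads were divided. It was 649 ± 224 CPM in loaded vehicle tibiae and 66.4 ± 50.3 in loaded DEX tibiae (SD, n = 5), a log2 fold change of -3.26 ± 0.50 (edgeR adjusted p = 0.0021). In unloaded tibiae it was 1487 ± 452 with vehicle and 159 ± 141 with DEX, a log2 fold change of -3.00 ± 0.55 (edgeR adjusted p = 0.013). Without unloaded DEX library 3 this call was lost (edgeR adjusted p = 0.059). In these bulk libraries fewer osteoblasts and less osteocalcin RNA per osteoblast cannot be told apart.

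Alpl, tissue-nonspecific alkaline phosphatase, was lower in DEX-treated tibiae of both limbs. Its CPM in the loaded vehicle libraries were 224, 279, 277, 328 and 237, and in the loaded DEX libraries 103, 97.5, 84.6, 40.0 and 57.8. In unloaded libraries they were 249, 367, 376, 329 and 402 with vehicle and 184, 121, 78.4, 75.6 and 58.3 with DEX. The groups did not overlap in either limb, with log2 fold changes of -1.78 ± 0.23 in loaded tibiae (edgeR adjusted p = 0.00081) and -1.64 ± 0.28 in unloaded tibiae (adjusted p = 0.010). The unloaded call was lost in the libraries with shared replicate numbers, with a replicate block (edgeR adjusted p = 0.051) or without it (0.053). It was also lost without unloaded DEX library 3 (edgeR adjusted p = 0.052).

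Ibsp and Spp1 encode related acidic glycoproteins of the bone matrix. Ibsp CPM in loaded tibiae were 1534, 1516, 1367, 2158 and 1617 with vehicle and 943, 1203, 952, 656 and 626 with DEX. The groups were apart and Ibsp fell by 0.87 ± 0.22 on the log2 scale (edgeR adjusted p = 0.019). The call was lost in the libraries with shared replicate numbers, with a replicate block (edgeR adjusted p = 0.10) or without it (0.071). In unloaded tibiae Ibsp ran from 1109 to 2295 CPM with vehicle and from 673 to 1547 with DEX, overlapping, and its log2 fold change of -0.56 ± 0.28 did not pass the test (edgeR adjusted p = 0.25). Spp1, which osteoclasts and macrophages also express, passed in neither limb. Its CPM were 1009, 999, 1100, 1624 and 1246 in loaded vehicle libraries and 905, 1135, 938, 425 and 1090.5 in loaded DEX libraries. In unloaded libraries they were 1016, 671, 776, 1117 and 1121 with vehicle and 1219, 1211, 791, 1035 and 1321 with DEX. The groups overlapped in both limbs, and the log2 fold changes were -0.38 ± 0.26 in loaded tibiae (edgeR adjusted p = 0.30) and 0.29 ± 0.21 in unloaded tibiae (adjusted p = 0.42).

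Of the transcription factors, Sp7 fell in loaded tibiae, with CPM of 65.3, 75.4, 57.2, 81.9 and 64.8 with vehicle and 50.6, 46.8, 35.1, 33.9 and 27.0 with DEX. The groups were apart and the log2 fold change was -0.79 ± 0.17 (edgeR adjusted p = 0.010). In unloaded tibiae it was -0.79 ± 0.24 (edgeR adjusted p = 0.067), and 1 DEX library, at 80.8 CPM, lay within the vehicle range of 77.5 to 117. That comparison passed with DESeq2 (adjusted p = 0.023), with all 20 libraries (0.030), without the filter (0.012), with all 4 groups in the model (0.027), with the receptor-gene covariate (0.018) and without unloaded DEX library 1 (0.020). Runx2 had 140 to 166 CPM in loaded vehicle libraries and 71.0 to 152 in loaded DEX libraries, with a log2 fold change of -0.42 ± 0.17 (edgeR adjusted p = 0.095). Dlx5 had 28.6 to 42.2 CPM with vehicle and 15.8 to 35.4 with DEX in loaded tibiae, with a log2 fold change of -0.43 ± 0.20 (edgeR adjusted p = 0.14). In unloaded tibiae the log2 fold changes were -0.21 ± 0.14 for Runx2 (edgeR adjusted p = 0.38) and -0.28 ± 0.18 for Dlx5 (adjusted p = 0.36). In loaded tibiae Runx2 passed with all 4 groups in the model (edgeR adjusted p = 0.022) and Dlx5 without the filter (0.048), and both passed without loaded DEX library 1 (0.036 and 0.039). In each of these settings 8 of the 10 genes were lower. Over all genes tested, 3205 of 23653 were lower with all 4 groups in the model and 2191 of 44714 without the filter. Fits that left out a library called 2696 to 5822 genes in either direction.

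Ostn, encoding osteocrin, was lower with DEX in both limbs. Its CPM in unloaded libraries were 20.4, 34.8, 22.1, 22.0 and 19.5 with vehicle and 7.84, 2.37, 2.59, 2.64 and 5.15 with DEX. In loaded libraries they were 18.96, 18.2, 20.9, 23.7 and 20.6 with vehicle and 15.3, 7.94, 5.13, 2.68 and 3.47 with DEX. All DEX libraries were below all vehicle libraries of the same limb, loaded DEX library 1 being the nearest. The log2 fold change was -2.39 ± 0.33 in unloaded tibiae (edgeR adjusted p = 0.0055) and -1.53 ± 0.35 in loaded tibiae (adjusted p = 0.013). In the libraries with shared replicate numbers the latter had an edgeR adjusted p of 0.024 with a replicate block and 0.058 without it.

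In sum over the 10 genes, 6 were significantly lower with DEX in loaded tibiae (Bglap, Bglap2, Alpl, Ibsp, Sp7 and Ostn) and 0 higher, where 8.35% of the 19781 genes tested were lower. The same 6 had groups that did not overlap, against 7.96% of all genes tested. In unloaded tibiae 5 were lower (Bglap, Bglap2, Bglap3, Alpl and Ostn) and 0 higher, where 4.00% of 19738 genes were lower, and 4 had groups apart, against 5.85% of all genes. The median log2 fold change of the 10 genes was -1.20 in loaded and -1.21 in unloaded tibiae, beside 0.0043 and 0.033 over all genes tested. The members are neither independent nor drawn by chance, so these counts are a description. Each of the 6 calls in loaded tibiae held when any 1 library was left out (10 fits), but 0 held when the receptor-gene level was a covariate, a level that did not overlap between those 2 groups, so that the receptor level and DEX cannot be told apart there. In unloaded tibiae, leaving out DEX library 3 left 1 call (Ostn, edgeR adjusted p = 0.026), where 129 of all genes were called. It raised the edgeR adjusted p to 0.057 for Bglap, 0.066 for Bglap2, 0.052 for Alpl and 0.14 for Bglap3. With the receptor covariate 6 of the 10 genes were lower there, where 1071 of 19738 genes were lower and 1524 higher.

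**Figure D2:**
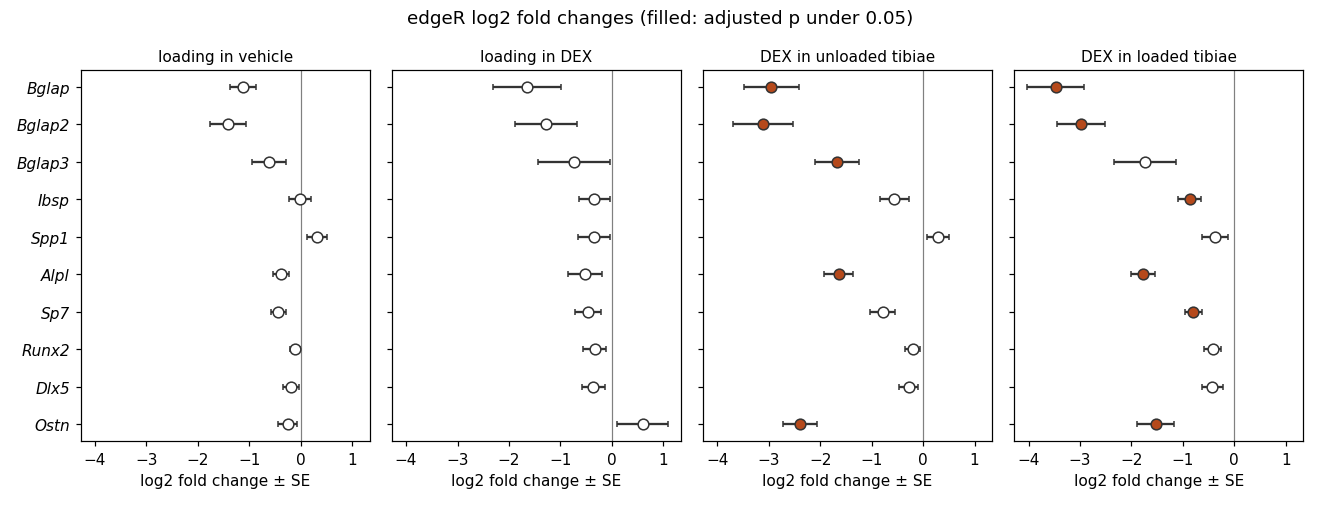
Log2 fold changes with standard errors (horizontal axis) of the 10 genes (vertical axis) in 4 comparisons from edgeR, filled where the adjusted p was under 0.05. The 2 loading panels hold 0 filled points, and the DEX panels hold 5 in unloaded and 6 in loaded tibiae, all to the left of 0.

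Marker genes of other cells in the bone moved in the same comparisons. With DEX in loaded tibiae 12 of 13 tested chondrocyte markers, 8 of 9 B cell markers, 6 of 10 periosteum and tendon fibroblast markers, 3 of 8 macrophage markers and 2 of 10 osteoclast markers were lower. In the same tibiae 9 of 10 neutrophil markers, 3 of 8 adipocyte markers and 1 of 12 skeletal muscle markers were higher, where 12.9% of all genes tested were higher, and 0 of 9 erythroid markers passed. Summed neutrophil markers ran from 4287 to 6338 CPM in loaded vehicle and from 7256 to 17309 in loaded DEX libraries, and summed chondrocyte markers from 2980 to 4966 and from 285 to 1297. In unloaded tibiae 8 of 10 neutrophil markers were higher, where 2.86% of all genes were, and 4 of 9 B cell, 4 of 10 fibroblast and 1 of 12 chondrocyte markers lower. There 1 of 10 osteoclast and 2 of 8 adipocyte markers were higher, and 0 of the macrophage, muscle and erythroid markers passed. Summed muscle markers there ran from 19854 to 101841 CPM with vehicle and from 4134 to 51489 with DEX. Each marker had a count in at least 1 library of every group. Their part in the values of the 10 genes was not tested.

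Loaded and unloaded groups were compared within each treatment to ask how the osteoblast genes responded to mechanical stress. Unless a replicate block is named, these comparisons do not pair the limbs of an animal. None of the 10 passed the test in either treatment, where edgeR called 0% of 17982 genes with vehicle and 0% of 22542 genes with DEX. At an unadjusted p under 0.05, edgeR gave 1771 genes with vehicle and 958 with DEX, and DESeq2 called 141 and 0. The loading comparisons share their libraries with the DEX comparisons above.

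In vehicle-treated mice the osteocalcin sum was 1487 ± 452 CPM in unloaded and 649 ± 224 in loaded tibiae, a log2 fold change of -1.23 ± 0.28 (edgeR adjusted p = 0.23). It was -1.12 ± 0.26 for Bglap (edgeR adjusted p = 0.23) and -1.41 ± 0.34 for Bglap2 (adjusted p = 0.24), with overlapping groups in both. At an unadjusted p under 0.05 edgeR gave 4 members (Bglap, Bglap2, Sp7 and Alpl) with lower values in loaded tibiae, where 5.95% of all genes were lower at that level. Sp7 had a log2 fold change of -0.44 ± 0.15 and Alpl of -0.38 ± 0.15 in that comparison (edgeR adjusted p = 0.40 and 0.46). With DESeq2's Wald test 2 members were called, Bglap (adjusted p = 0.0067) and Bglap2 (adjusted p = 0.0078), and the osteocalcin sum passed too (adjusted p = 0.0040). Summed muscle markers ran from 9489 to 49284 CPM in the loaded vehicle libraries beside 19854 to 101841 in the unloaded ones, with 0 of 12 called. Summed osteoclast markers ran from 1554 to 2131 CPM in the loaded and from 843 to 1314 in the unloaded vehicle libraries, without overlap, and macrophage markers from 778 to 915 and from 577 to 811, with 0 of 10 and 0 of 8 called. The part of these cells in the values was not tested. Spp1 had a log2 fold change of 0.32 ± 0.19 (edgeR adjusted p = 0.57), and Ibsp of -0.017 ± 0.21 (adjusted p = 0.98), a value whose sign turned under 5 other settings and with some libraries left out.

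In DEX-treated mice the osteocalcin sum had a log2 fold change of -1.49 ± 0.63 with loading (edgeR adjusted p = 0.73). In DEX libraries 1 to 5 it was 337, 284, 91.5, 46.5 and 37.6 CPM unloaded and 96.6, 137, 54.7, 26.0 and 17.2 loaded. It was lower with load at every number, as in vehicle, the unnumbered pair included. With a replicate block the value in DEX was -1.18 ± 0.15 (edgeR adjusted p = 0.28). That a number marks the limbs of 1 mouse is not stated. In the unblocked fit of the DEX groups, Bglap alone had an unadjusted p under 0.05, where 0.581% of all genes were lower at that level. Its log2 fold change was -1.65 ± 0.67 (edgeR adjusted p = 0.73). With a replicate block Bglap, Bglap2, Sp7 and Runx2 (lower) and Ostn (higher) were under that level by edgeR, where 1696 of 21187 genes were in either direction. With all 4 groups in the model Bglap, Bglap2 and Sp7 were, where 1148 of 23653 genes were. None passed after adjustment. Ostn was the only member with a positive value (0.60 ± 0.49, edgeR adjusted p = 0.73), which was 0.11 without loaded DEX library 1. How far loading responses differed with and without DEX (the interaction of DEX and loading) was tested in 1 model, which called 0% of 23653 genes, with 2858 at an unadjusted p under 0.05 by edgeR and 51 called by DESeq2. Among the members the interaction ran from -0.69 ± 0.36 for Spp1 to 0.83 ± 0.52 for Ostn on the log2 scale (edgeR adjusted p = 0.42 and 0.45). It was -0.27 ± 0.74 for the osteocalcin sum (edgeR adjusted p = 0.85).

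The 10 genes varied together to different degrees across the libraries. Over 20 libraries, which differ in treatment, limb and depth, Pearson's r of log2 CPM was 0.98 between Bglap and Bglap2, which share reads. It was 0.97 between Bglap and Alpl, 0.95 between Bglap and Sp7, 0.90 between Bglap and Ibsp, and 0.82 between Bglap and Ostn. Spp1 stood apart, with r from -0.15 (Bglap3) to 0.45 (Runx2). After each group's mean was removed, r was still 0.89 between Bglap and Alpl and 0.85 between Bglap and Ibsp, and it was 0.51 between Bglap and Ostn. The spread between libraries of a group was wide under DEX: the coefficient of variation of Bglap was 28.4% in unloaded and 32.4% in loaded vehicle tibiae, and 88.2% and 86.0% in the DEX groups. That of Runx2 was between 6.53% and 28.4% in the 4 groups.

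Col1a1, the type I collagen gene that makes up most of the organic bone matrix, moved with the osteocalcin genes. Its log2 fold change with DEX was -2.91 in loaded and -2.14 in unloaded tibiae (edgeR adjusted p = 0.0031 and 0.042). Across the 20 libraries r of log2 CPM with Col1a1 was 0.97 for Bglap, 0.96 for Alpl and 0.24 for Spp1, and 0.92, 0.86 and 0.20 after each group's mean was removed. The loaded vehicle group did not share this: its highest Alpl level (328 CPM) was in library 5, where Col1a1 was 46377 CPM, and its lowest (224 CPM) in library 1, where Col1a1 was 59630 CPM. When libraries were scaled to the summed Col1a1 and Col1a2 counts, the median of all genes shifted by 3.41 on the log2 scale in loaded and by 2.51 in unloaded tibiae. On that scale Bglap had a log2 value of -0.82 in loaded tibiae (edgeR adjusted p = 0.096) and -1.12 in unloaded tibiae (adjusted p = 0.16). The log2 ratio of Bglap to the summed collagen CPM in each library was -6.57 ± 0.47 in unloaded vehicle and -7.78 ± 0.40 in unloaded DEX tibiae (SD, n = 5), where the lowest vehicle ratio was -7.10 and the highest DEX ratio -7.30, without overlap. In loaded tibiae it was -7.61 ± 0.51 with vehicle and -8.38 ± 0.39 with DEX, and the groups overlapped. The other members apart from Bglap2 were above 0 on that scale in loaded tibiae, between 1.33 for Alpl and 2.89 for Spp1.

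**Figure D3:**
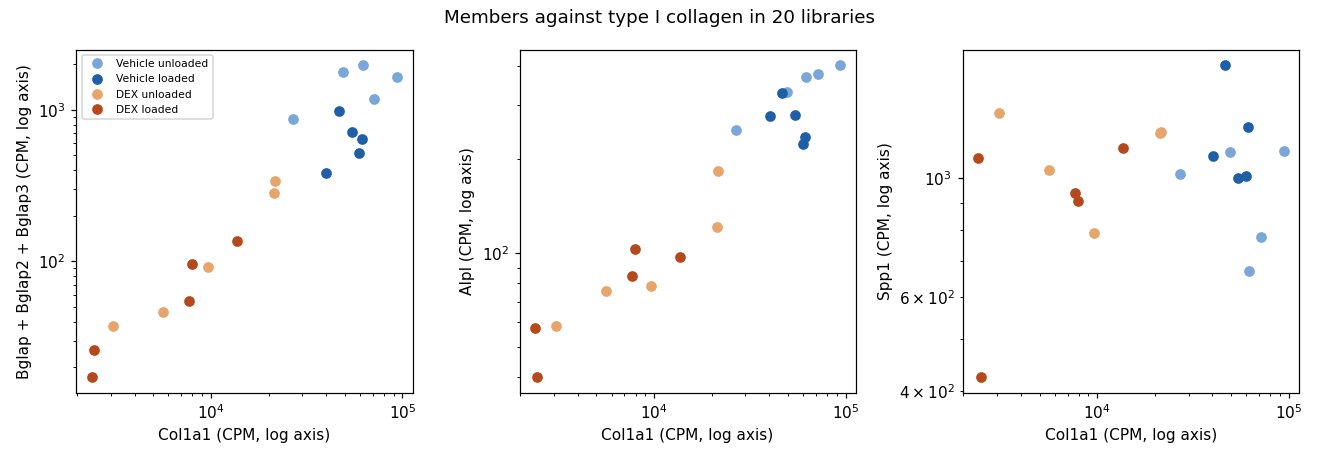
Summed osteocalcin, Alpl and Spp1 CPM (vertical, log axes) against Col1a1 CPM (horizontal, log axis) in the 20 libraries, coloured by group. The osteocalcin sum and Alpl rise with Col1a1 across the 20 libraries but not within the loaded vehicle group, while Spp1 lies between 425 and 1321 CPM in the DEX libraries and between 671 and 1624 in the vehicle libraries.

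Among the 10329 other genes with a mean of at least 10 CPM, those most like Bglap over the 20 libraries were Serpinf1, which encodes pigment epithelium-derived factor (r = 0.99), Ppfia2 (0.98) and Farp2 (0.98). Serpinf1 had 513, 370, 134 and 98.1 CPM on average in unloaded vehicle, loaded vehicle, unloaded DEX and loaded DEX tibiae. Those most like Ostn were Lum, the collagen-binding proteoglycan lumican (r = 0.94), Polr3d (0.93) and Gorab (0.93). The genes nearest to Spp1 were Anp32b (r = 0.91), the ribosomal protein gene Rpl3 (0.90) and the splicing gene Snw1 (0.89). Spp1 also had r = 0.70 with Acp5, the osteoclast phosphatase TRAP, where Bglap had 0.23.

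Other genes of the osteoblast programme were compared by lists that hold none of the 10. Of 12 genes of mineralization and osteocyte matrix, 8 were lower with DEX in loaded and 7 in unloaded tibiae, with 0 higher. Smpd3, a sphingomyelinase needed for bone mineral, had log2 fold changes of -2.21 and -2.03 (edgeR adjusted p = 0.0018 and 0.049), and Enpp1, which makes pyrophosphate, of -0.99 and -0.71 (adjusted p = 0.0030 and 0.016). Of 12 bone matrix and osteoblast surface genes, 8 were lower in loaded and 7 in unloaded tibiae, again with 0 higher. Among them Sparc (osteonectin) had log2 fold changes of -2.31 and -1.73 (edgeR adjusted p = 0.0020 and 0.024) and Tnn (tenascin N) of -2.37 and -1.55 (adjusted p = 0.0029 and 0.0060). Of 11 tested regulators of osteoblast transcription 6 were lower and 1 higher in loaded tibiae, and 3 were lower in unloaded tibiae. Lef1, a transcription factor of Wnt signalling, fell in loaded tibiae (log2 fold change -1.11, edgeR adjusted p = 0.0037) and had a log2 fold change of -0.85 in unloaded tibiae (adjusted p = 0.061). Twist2, a repressor of osteoblast maturation, was the one higher (log2 fold change 1.54, edgeR adjusted p = 0.034). Loading called 0 genes of these 3 lists in either treatment by edgeR.

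The partners of the secreted products were looked at in the same way. Vkorc1 and Ggcx, which recycle vitamin K and use it to carboxylate osteocalcin, were both lower with DEX in loaded tibiae (log2 fold changes -1.29 and -1.06, edgeR adjusted p = 0.0042 and 0.0047), and Vkorc1 also in unloaded tibiae (-1.17, adjusted p = 0.0049). Of 3 natriuretic receptors tested, Npr3, the clearance receptor that binds osteocrin, was higher with DEX in loaded tibiae (log2 fold change 1.30, edgeR adjusted p = 0.019) and Npr2 lower (-0.63, adjusted p = 0.019). None of the 3 passed in unloaded tibiae. Of 4 receptors for osteopontin and bone sialoprotein, Itgav was lower in loaded tibiae (-0.74, edgeR adjusted p = 0.0099), Itgb5 had a log2 fold change of -0.46 (adjusted p = 0.13), and 0 passed in unloaded tibiae. Of 5 glucocorticoid-induced genes, Fkbp5 and Zbtb16 were higher with DEX in loaded tibiae (log2 fold changes 0.87 and 1.01, edgeR adjusted p = 0.0078 and 0.0093). In unloaded tibiae 0 of these 5 were higher and Sgk1 was lower.

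**Figure D4:**
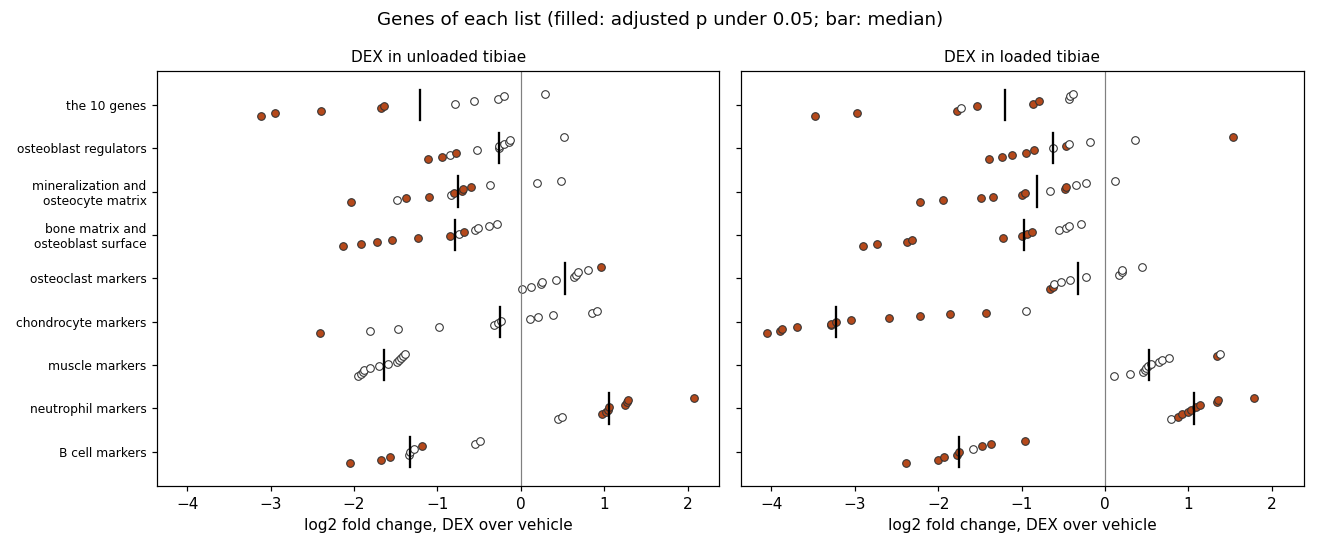
Log2 fold changes with DEX (horizontal axis) for the genes of 9 lists (rows) in unloaded and loaded tibiae, filled where the edgeR adjusted p was under 0.05, with the list median as a bar. The first row holds the 10 genes themselves. The 3 other osteoblast lists have medians below 0 in both panels, between -0.27 and -0.97, and the neutrophil markers lie above 0.

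The promoter windows of Bglap, the gene with the largest fall in loaded tibiae, and Spp1, which passed in neither limb, are shown for comparison. They are the 250 bases before the RefSeq transcript start (GRCm38.p6), at chr3:88384467-88384716 on the minus strand and chr5:104434861-104435110 on the plus strand. Capitals mark exact matches on either strand to a RUNX motif (AACCACA), the half-site of the glucocorticoid receptor (AGAACA) or the letters of a TATA box (TATAAA). The matches do not overlap each other here, and a match to TATAAA was counted at any distance from the start.
Bglap: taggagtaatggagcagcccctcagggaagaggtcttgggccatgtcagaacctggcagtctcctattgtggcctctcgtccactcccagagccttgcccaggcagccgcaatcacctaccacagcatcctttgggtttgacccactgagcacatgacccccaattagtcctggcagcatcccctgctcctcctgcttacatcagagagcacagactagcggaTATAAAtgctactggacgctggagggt
Spp1: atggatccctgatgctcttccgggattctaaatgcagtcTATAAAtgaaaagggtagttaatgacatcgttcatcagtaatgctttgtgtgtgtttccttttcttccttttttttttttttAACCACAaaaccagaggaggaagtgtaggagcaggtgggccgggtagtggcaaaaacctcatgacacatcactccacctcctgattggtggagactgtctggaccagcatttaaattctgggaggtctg
The Bglap window held TATAAA (-27 to -22 from the start) and no exact match to the other motifs. Near matches were not sought, such as taccaca in that window, which differs from AACCACA in its leading base. The Spp1 window held AACCACA (-129 to -123) and TATAAA (-211 to -206), and another Spp1 window held none of the motifs. Among the other members, an Ibsp window held TATAAA, an Alpl window AGAACA and TATAAA, and the Runx2 window AACCACA, on either strand. The Bglap3 windows held none. Of 32851 windows of the same length in the reference table, 4.40% held AACCACA, 16.1% AGAACA and 12.4% TATAAA on either strand. The table held windows for 6 of the 10 genes.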

How the data were processed

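Total RNA of mouse tibiae was made into stranded libraries (SMARTer Pico chemistry) and sequenced. The authors deposited RSEM expected counts per gene, not scaled for depth; the submitters' processing notes name STAR 2.7.10a, RSEM 1.2.28 and GRCm38, and the annotation release is not given in the sources used here. Gene symbols came from GENCODE M21 (54409 of 54446 identifiers).

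Expected counts, of which 10.6% to 14.0% per library were not whole, were rounded to whole numbers. Groups were compared with edgeR's quasi-likelihood test (edgeR 4.0.16, R 4.3.3) after filterByExpr and TMM scaling, with Benjamini-Hochberg adjustment at 0.05. The study's methods name DESeq2's Wald test, run here as an alternative (DESeq2 1.42.0). Unloaded DEX library 4 was left out of the tests, as the study left out a DEX sample of that number without naming the limb. The unloaded limb was taken because the study's plots hold fewer DEX values without load than with it. The standard error was taken from the fold change and its F value. The fits were tested on simulated data first. The 10 genes and the gene lists were chosen with earlier results of these data known. Every one of the 10 genes is named; from each list of pathway genes or partners the 2 genes with the lowest p with DEX in loaded tibiae are named, except 1 that is not reported here, and Fkbp5, Zbtb16, Sgk1, Twist2 and Acp5 were named after their values were seen. Genes most like a member were the 3 with the highest Pearson's r.

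Other settings were DESeq2 size factors, scaling to Col1a1 and Col1a2, no filter, 1 model over the 4 groups, the full 20 libraries, loaded DEX library 4 left out in place of the unloaded one, a replicate block, a receptor-gene covariate, and each library left out in turn. Library totals of 4641499 to 13032065 expected counts limit the precision for genes with few reads, Bglap3 first.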

Additional observations from a re-analysis of the deposited data

Results flagged for a closer look

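Among the 10 genes and 4 groups (40 groups of 5 libraries, of which chance flags about 1 in 20), 1 value stood far from the others of its group. Ostn was at 34.8 CPM in unloaded vehicle library 2, with the next library at 22.1 and the lowest at 19.5, so that the gap to the nearest library was 0.8288 of the range. Bglap2, Bglap3, Ibsp and Sp7 were also highest of their group in that library, at 1056, 10.5, 2295 and 117 CPM.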

How the results depend on the processing

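With DEX in loaded tibiae the 6 calls among the 10 genes became 0 with the receptor-gene covariate, under which 28 of all genes were called in place of 4210. Scaled to Col1a1 and Col1a2, 8 members were called there, all higher, because the reference itself fell and the median of all genes shifted by 3.41 (19699 genes called, 19697 of them higher): Bglap3 1.88, Ibsp 2.33, Spp1 2.89, Alpl 1.33, Sp7 2.46, Runx2 2.82, Dlx5 2.75 and Ostn 1.42 on the log2 scale. In unloaded tibiae, on the same scale, 4 were called, all higher, with the median shifted by 2.51 (18856 genes), and the log2 values were Bglap3 0.50, Ibsp 1.66, Alpl 0.57, Sp7 1.40, Runx2 2.20, Dlx5 2.33 and Ostn 0.17. For loading in DEX the shift was 0.93, with Bglap3 at 0.93, Ibsp 0.67, Spp1 0.30, Alpl 0.47, Sp7 0.62, Runx2 0.51 and Dlx5 0.33. For the interaction it was 1.05, with Bglap at 0.30, Bglap3 1.41, Ibsp 0.67, Spp1 0.030, Alpl 0.76, Sp7 1.06, Runx2 0.62 and Dlx5 0.43.

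With DEX in unloaded tibiae the 5 calls ran from 1 (without DEX library 3) to 6 when a library was left out, and the osteocalcin sum from -3.43 to -2.68, losing its call without DEX library 3 (adjusted p = 0.059). For loading in vehicle 2 members were called by DESeq2, with the osteocalcin sum at -1.22, and 1 (Bglap2) without the filter. The value of Ibsp for loading in vehicle turned to 0.0084 with all 4 groups, 0.035 without the filter and 0.13 with the covariate, and ran from -0.14 to 0.17 with a library left out. Interaction values that turned sign were all short of the test. With loaded DEX library 4 left out in place of the unloaded one they were 0.17 for the osteocalcin sum, 0.11 for Alpl, 0.11 for Sp7 and 0.030 for Dlx5. With all 20 libraries they were 0.060 for Bglap3 and 0.047 for Sp7, and with the covariate -0.071 for Bglap2 and 0.017 for Dlx5. With a library left out they ran from -0.74 to 0.13 for the sum, -0.28 to 0.58 for Bglap2, -0.87 to 0.18 for Bglap3, -0.40 to 0.17 for Alpl and -0.27 to 0.20 for Sp7. The cause of these changes was not tested.

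Whether a replicate number marks the limbs of the same mouse is not stated in the sources used here. The correlation of same-numbered libraries ran from -0.30 to 0.34 with vehicle, the unnumbered pair included, and from 0.029 to 0.36 with DEX. Among the DEX libraries, 1 and 5 correlated best with their own number. This correlation takes in all genes, those of marrow and muscle included, so it cannot decide whether a number marks a mouse. The numbers were not taken as a pairing. With a replicate block 5 members were called in loaded tibiae (Ibsp was lost, edgeR adjusted p = 0.10) and 2 in unloaded tibiae (Bglap at 0.054, Alpl at 0.051 and Bglap3 were lost), beside 4 and 3 in the same libraries without it. If the numbers are pairs, the errors for loading are smaller: with the block the osteocalcin sum was -1.20 ± 0.21 in vehicle and -1.18 ± 0.15 in DEX (edgeR adjusted p = 0.084 and 0.28), and its interaction was -0.0011 ± 0.23. In the same libraries without the block the sum was -1.19 ± 0.34 in vehicle and -1.28 ± 0.65 in DEX, and its interaction was -0.10 ± 0.81. The block gave a log2 value of 0.047 for Ibsp with loading in vehicle (0.0083 unblocked), 0.027 for Dlx5 with DEX in unloaded tibiae (0.028 unblocked) and 0.011 for the interaction of Sp7. Over all genes, calls in loaded tibiae were 2329 with the block, 1123 in its libraries without it, 9008 without the filter and 8445 with all 4 groups, against 4210. In unloaded tibiae they were 513, 555, 2411 with DESeq2, 2924 with all 20 libraries and 2595 with the covariate, against 1353. Leaving out a library gave 129 (DEX 3), 530 (vehicle 5), 828 (DEX 2) or 832 (vehicle 4) in unloaded tibiae and up to 1866 otherwise, and 2696 (unnumbered vehicle) to 5822 in loaded tibiae. Loading in vehicle had 141 with DESeq2, 41 scaled to collagen, 50 without the filter and 4 with all 4 groups, against 0, and 0 to 4 with a library left out, as had loading in DEX with 0 to 39. The interaction had 51 with DESeq2, 9 scaled to collagen and 1 without the filter, and 0 to 54 with a library left out.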

Other observations

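The 3 osteocalcin genes kept unequal shares of their sum. Bglap2 made up 39.0% ± 8.95 of the summed CPM in unloaded vehicle, 35.02% ± 2.52 in loaded vehicle, 37.1% ± 2.35 in unloaded DEX and 44.95% ± 7.36 in loaded DEX tibiae (SD, n = 5), although the sum itself differed by up to 22.4-fold between group means. Bglap3 made up 0.42% ± 0.15, 0.69% ± 0.22, 1.45% ± 0.65 and 3.44% ± 5.56 in the same order. The last value holds loaded DEX library 4, where Bglap3 reached 13.3% of a sum of 26.0 CPM. These shares rest on how shared reads were divided.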
